A study of Canis lupus familiaris with 36 samples.

Results

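The miR-17-92 cluster is a group of 6 microRNAs (miRNAs) that are cut from 1 primary transcript. Its mature products, cfa-miR-17, cfa-miR-18a, cfa-miR-19a, cfa-miR-20a, cfa-miR-19b and cfa-miR-92a (written below without the dog prefix cfa), were chosen by name, and all 6 were found among the 453 mature miRNA names of the cardiac count table. Where a mature miRNA had several rows, the row with the highest total was used. The study sequenced small RNA from formalin-fixed, paraffin-embedded (FFPE) tissue of dogs with visceral hemangiosarcoma (HSA), a malignancy of endothelial cells, and of dogs without neoplasia. Used here were 6 libraries of cardiac HSA and 6 libraries of heart tissue from dogs whose death had a cause other than neoplasia, each from tissue sections of 1 dog. The 18 splenic HSA and 6 splenic control libraries were not analysed here. The HSA dogs were chosen for having survived some days after hospital discharge, may have been treated, and were older than the control dogs. Age and treatment of single dogs were not used here, so their part and that of the tumor cannot be told apart.

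The labels of each cardiac library contradict themselves, since its title and its treatment field give opposite conditions. The title was followed, and every direction below would turn if the treatment field were right. The files name no sequencing batch, and the 2 groups have library names of different styles. Condition and any batch along the same split cannot be told apart.

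The cluster works through its primary transcript, from which the precursors are processed one by one. Transcription factors of the MYC and E2F families activate it, and it is best known as an oncogenic cluster in lymphoma. By name, the members fall into 4 seed families: miR-17 with miR-20a, miR-18a, miR-19a with miR-19b, and miR-92a. MiR-17 and miR-20a repress cell cycle regulators such as CDKN1A, and miR-18a and the miR-19 pair repress the anti-angiogenic proteins thrombospondin-1 and CTGF. MiR-92a is known in endothelial cells for restraining vessel growth. In the RefSeq gene table of the dog assembly UU_Cfam_GSD_1.0, which is not the build of the authors, the genes follow each other as MIR17, MIR18A, MIR19A, MIR20A, MIR19B-1 and MIR92A-1, with 0 other listed genes between the first and the last. A second copy of miR-19b and of miR-92a lies in a paralogous cluster on another chromosome, together with MIR363, MIR20B, MIR18B and MIR106A.

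Total counts ran from 6999830 to 11668822 in the control libraries (median 9049880.5) and from 2018959 to 8999025 in the HSA libraries (median 4233661). The heart label was compared with the muscle miRNAs, which include miR-1, miR-133a and miR-499. MiR-133c, whose row holds nearly the same reads as that of miR-133a, was left out of the sum. The sum lay between 127045 and 187517 CPM, the counts scaled to a common library total, in the controls and between 687 and 161535 CPM in HSA, where 4 of the 6 libraries fell below every control and HSA replicates 1 and 6 lay within the control range. The 4 libraries below all others were thus all titled HSA. This was not used to group the libraries. HSA replicate 3 had the lowest muscle sum and held 204390 CPM of the liver miRNA miR-122. HSA replicate 5 had the highest sum of epithelial miRNAs, 3285 CPM. Neither signal was confined to these libraries. In all 6 HSA libraries miR-122 was above every control, at 66.7 CPM or more against at most 43.9 CPM. The epithelial sum was too, at 43.2 CPM or more against at most 20.9 CPM. Differential expression of the members and the ratios between members were also computed without HSA replicates 3 and 5. MiR-126, the endothelial miRNA, was not called (log2 fold change -0.45, 95% interval from -1.25 to 0.35, adjusted p = 0.328 from edgeR), with 4 HSA libraries below every control and 1 above. All 4 leukocyte miRNAs, miR-223, miR-142, miR-150 and miR-155, were called higher in HSA, beside 18.7% of all tested miRNAs. Their summed level was 289 to 424 CPM in control and 578 to 3555 CPM in HSA. For miR-150 and miR-155, 4 HSA libraries lay above every control, and for miR-150 1 lay below every control.

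To determine whether the cluster differed between cardiac HSA and cardiac control, a quasi-likelihood test of edgeR was run on the counts of 225 mature miRNAs. Libraries were scaled by TMM, a method that lets most miRNAs keep their level. A miRNA was called differentially expressed when its p, adjusted by Benjamini-Hochberg, was under 0.01 and its level differed by a log2 fold change of 1 or more in either direction. Of the 6 members, 4 were called higher in HSA and 0 were called lower. The 4 were miR-18a, miR-19a, miR-19b and miR-20a. Over all tested miRNAs, 25.8% were called, of which those higher in HSA made up 18.7% and those lower 7.11% of all tested. The same 4 members had all 6 HSA libraries above all 6 control libraries, which held for 15.1% of the tested miRNAs. MiR-17 was also at a higher level but was not called, and miR-92a, the most abundant member by far, did not follow the others. The median log2 fold change was 1.33 over the 6 members and 0.34 over the 225 miRNAs. In bulk tissue, more cells that make the cluster and more of it per cell cannot be told apart.

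**Figure D1:**
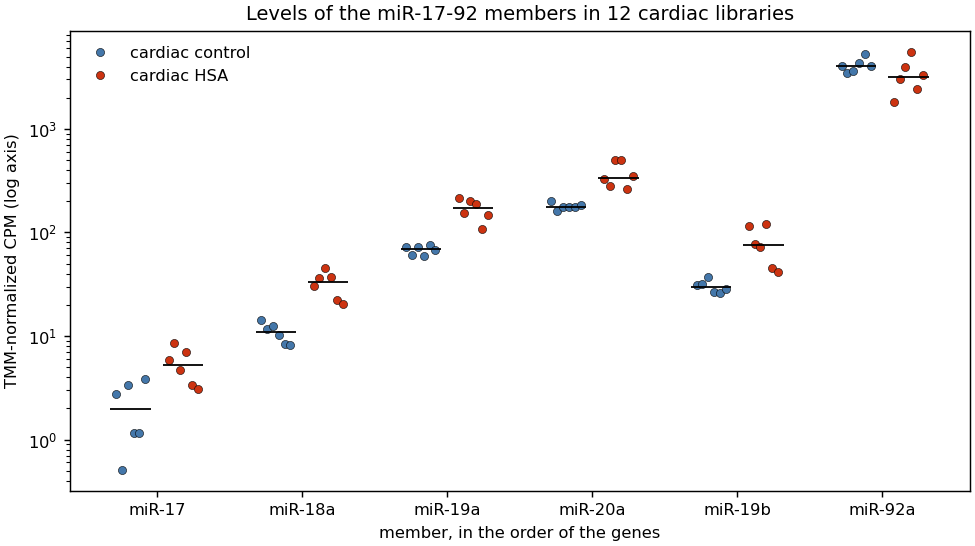
TMM-normalized CPM (log axis) of each member in every cardiac library, with members in the order of their genes; each point is a library and each line the median of 6. The HSA points of miR-18a, miR-19a, miR-20a and miR-19b lie above all control points, while those of miR-92a spread from 1809 to 5510 CPM around the control values.

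MiR-18a had the largest log2 fold change of the members. Its level ran from 8.20 CPM in the lowest control over a median of 11.0 to 14.2 CPM in the highest, and from 20.4 over 33.5 to 45.7 CPM in HSA, so the groups did not overlap. The mean was 10.9 ± 2.37 CPM (SD, n = 6) in control and 32.1 ± 9.72 CPM (SD, n = 6) in HSA. The log2 fold change was 1.56 with a standard error of 0.28, or 2.94-fold, and edgeR gave it an adjusted p of 0.00156. The call was kept when any 1 of the 12 libraries was left out. The value rests on 51 to 116 counts per control library and 68 to 330 counts per HSA library.

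The miR-19 pair rose by similar amounts. MiR-19a ran from 58.9 over a median of 69.6 to 76.0 CPM in control and from 107 over 171 to 215 CPM in HSA. With 67.7 ± 6.83 and 169 ± 39.9 CPM (SD, n = 6 each), its log2 fold change was 1.32 (standard error 0.20), with the lowest adjusted p of the members, 0.000935 from edgeR. Without HSA replicate 1 the log2 fold change of miR-19a came to 1.00, just short of the fold threshold (adjusted p = 0.00636 from edgeR). MiR-19b ran from 26.2 over a median of 29.7 to 36.7 CPM in control and from 41.5 over 74.8 to 121 CPM in HSA. The log2 fold change of miR-19b was 1.39 with a standard error of 0.29, and edgeR gave an adjusted p of 0.00363. The lowest HSA library of miR-19b, replicate 6, stood close to the highest control, and its highest ones were replicates 1 and 4. The call of miR-19b was less firm than that of miR-19a. It was lost without HSA replicate 1 or 4, where the log2 fold change was 0.98 in both cases (adjusted p = 0.0189 and 0.0233 from edgeR), and without control replicate 1, 4 or 5 (adjusted p = 0.0101, 0.0104 and 0.0115).

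MiR-20a, the second most abundant member, varied little among controls, from 162 over a median of 177 to 199 CPM. In HSA it ran from 262 over 338 to 506 CPM, again without overlap. Its mean rose from 179 ± 12.0 to 371 ± 107 CPM (SD, n = 6 each), a 2.08-fold rise. In log2 units this was 1.06 with a standard error of 0.19, and the adjusted p from edgeR was 0.00156. This lies close to the fold threshold, and the call depended on the setting. Without HSA replicate 1, 3 or 4 the log2 fold change was 0.84, 0.95 and 0.72 (adjusted p = 0.0119, 0.00273 and 0.0261 from edgeR). Without replicate 1 or 4, the adjusted p thus missed its threshold as well. With median-of-ratios factors the log2 fold change was 0.99.

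MiR-17, by its name in the seed family of miR-20a, had the lowest counts of the cluster. They ran from 5 to 31 per control library and from 13 to 77 per HSA library. Its level ran from 0.509 over a median of 1.96 to 3.86 CPM in control and from 3.05 over 5.25 to 8.53 CPM in HSA. The groups overlapped, with 4 of the 6 HSA libraries above every control. The log2 fold change of 1.34 was of the same size as that of miR-19a, but its standard error was 0.49 and its adjusted p 0.0404 (edgeR), so it was not called. At an adjusted p under 0.05 with no fold threshold, 5 of the 6 members were higher in HSA, miR-17 among them, beside 28.9% of all tested miRNAs. Its 95% interval reached from 0.28 to 2.40.

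How low miR-17 stands depends on which rows of its precursor are counted. How single reads were named was not tested. Without mature sequences, the stretch of the precursor behind the row of miR-17, and so its seed, was not checked. The precursor mir-17 has a further row in the table, under the mature name miR-106a, with 360 to 628 counts per control library and 246 to 1206 per HSA library, so the row of miR-17 held from 0.790 to 9.12% of the counts on its precursor. The precursor mir-106a itself had 3 to 13 counts of miR-106a per control library and 6 to 39 per HSA library. With both rows of the precursor mir-17 added together, a sum chosen after the data were seen, the level ran from 53.5 over a median of 62.9 to 73.0 CPM in control and from 73.1 over 117 to 176 CPM in HSA. The groups then did not overlap, although the lowest HSA library stood next to the highest control. The log2 fold change was 0.87 (adjusted p = 0.00982 from edgeR), under the fold threshold, so the sum was not called either.

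MiR-92a made up most of the cluster's counts in every library. It ran from 3427 over a median of 4056 to 5231 CPM in control and from 1809 over 3183 to 5510 CPM in HSA. In HSA, 4 libraries lay below every control and replicate 4 lay above every control, so the groups overlapped. The mean was 4124 ± 637 CPM in control and 3350 ± 1297 CPM in HSA (SD, n = 6 each). The log2 fold change of -0.30 (standard error 0.24, 95% interval from -0.82 to 0.22) was not called, with an adjusted p of 0.316 from edgeR. Its sign depended on the scaling. It was 0.29 with library size only. With libraries scaled to the summed counts of miR-8859a and miR-8859b, 2 of the 3 reference candidates of the study's qPCR, it was 0.0062. MiR-8859a dominates that sum, with a control mean of 1330 CPM against 52.9 CPM for miR-8859b. Scaled to the geometric mean of all 3 candidates, with miR-8884 as the third, the log2 fold change of miR-92a was -0.36. This scaling was added after the data were seen. The 2 reference scalings differ in weighting as well as in miR-8884, and these were not tested apart. MiR-92a is carried by red blood cells as well. Of the 4 erythroid miRNAs, miR-144 was called higher in HSA (log2 fold change 1.77) and miR-486-3p lower (-2.75). MiR-451 (0.81) and miR-486 (-1.33) were not called, although all 6 HSA libraries of miR-486 lay below every control. The 4 thus moved in different directions, and their sum is no clean measure of red blood cells. In control, miR-486 averaged 19182 CPM and the sum 29165 CPM. The sum ran from 22298 to 31727 CPM in control and from 6042 to 47677 CPM in HSA. It was highest in HSA replicate 4, the library that also had the most miR-92a. The part of red blood cells in the level of miR-92a was not tested.

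**Figure D2:**
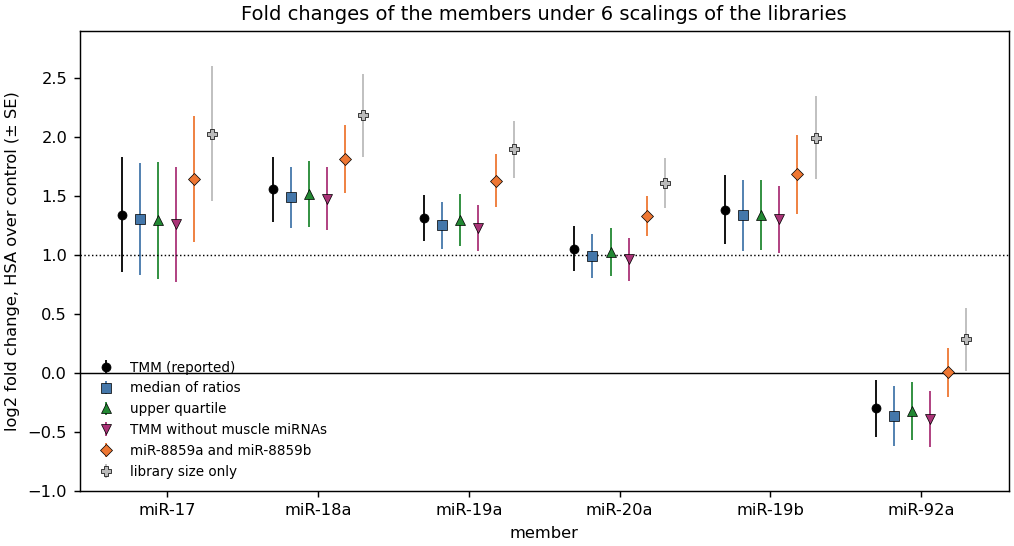
Log2 fold change of each member (± SE, from edgeR) under 6 ways of scaling the libraries; the solid line marks 0 and the dotted line the fold threshold of 1. MiR-18a, miR-19a and miR-19b stay above 1 and miR-20a lies between 0.97 and 1.61, while miR-92a moves from -0.39 to 0.29.

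Scaling moved all members together. With library size only, the tested miRNAs had a median log2 fold change of 0.97 in place of 0.34, with miR-8859a and miR-8859b of 0.71 and with all 3 reference candidates of 0.33. With TMM, 42 miRNAs were called higher and 16 lower, with library size only 68 and 5, with miR-8859a and miR-8859b 50 and 3, and with the 3 candidates 37 and 13. Relative to that median, miR-18a stood at 1.22 with TMM, 1.21 with library size only and 1.10 with miR-8859a and miR-8859b. MiR-20a stood at 0.71, 0.64 and 0.62 above the median, and miR-92a at -0.64, -0.69 and -0.71. Under these 3 scalings, miR-92a lay below the median of the tested miRNAs and the other 5 members above it. Since scaling moves all miRNAs together, these distances could change little, and their likeness is no added evidence. They did depend on the miRNAs tested. With DESeq2, another test, and with no filter beyond 1 read, 320 miRNAs were tested. There miR-20a stood at 0.17 and 0.20, miR-17 at 0.50 and 0.48, and miR-92a at -1.18 and -1.16.

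Because a ratio of counts within a library is free of that scaling, the 15 ratios between members were compared with a two-sided exact permutation test, adjusted over the 15. In 5 of them the groups differed at an adjusted p under 0.05, and these were the 5 ratios to miR-92a. The log2 ratio of miR-20a to miR-92a was -4.52 ± 0.21 in control and -3.13 ± 0.37 in HSA (SD, n = 6 each), a difference of 1.39. That of miR-19a rose from -5.92 ± 0.20 to -4.26 ± 0.62, by 1.66. For miR-19b it rose from -7.10 ± 0.38 to -5.44 ± 0.80, also by 1.66. For miR-18a it rose from -8.58 ± 0.48 to -6.67 ± 0.55, by 1.91. In these 4 ratios every HSA library was above every control library, and the exact permutation test gave p = 0.00216, the smallest possible with 6 against 6, and an adjusted p of 0.00812. The ratio of miR-17 to miR-92a rose by 1.95, from -11.23 ± 1.15 to -9.28 ± 0.73, with overlap of the groups (exact permutation test, p = 0.00649, adjusted p = 0.0195). With HSA replicates 3 and 5 left out, this last ratio had an adjusted p of 0.0833, and the other 4 kept an adjusted p under 0.05.

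**Figure D3:**
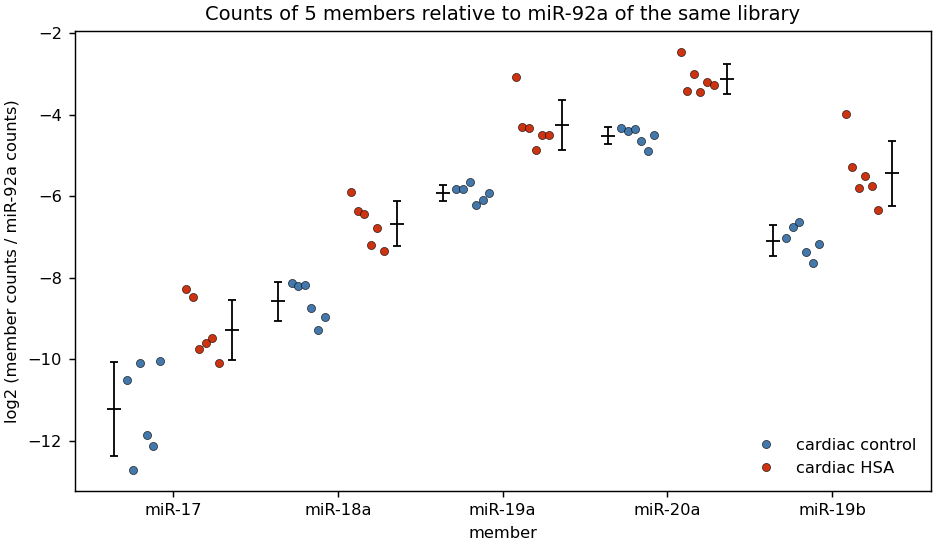
Log2 ratio of the counts of 5 members to the counts of miR-92a in the same library; points are libraries and bars show the mean ± SD of 6. All HSA points lie above all control points for miR-18a, miR-19a, miR-20a and miR-19b, and HSA replicate 1 is the highest for miR-19a, at -3.07.

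With both rows of the precursor mir-17 added together, the ratio to miR-92a rose by 1.19 (exact permutation test, adjusted p = 0.0325).

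In the 10 ratios that did not involve miR-92a, the groups were not shown to differ, with adjusted p from 0.0595 to 0.965 (exact permutation tests). The largest of these differences in mean log2 ratio were 0.56 for miR-17 to miR-20a and 0.52 for miR-18a to miR-20a, and the smallest was 0.0047 for miR-19a to miR-19b. With both rows of mir-17 added together, the ratio of miR-17 to miR-18a was lower in HSA by a log2 difference of -0.72 (exact permutation test, adjusted p = 0.0487), where the row of miR-17 alone gave a difference close to 0. Put as shares, miR-92a held 93.3 ± 0.944% of the counts of the 6 members in control and 82.7 ± 5.26% in HSA (SD, n = 6 each), with a lowest control of 92.3% and a highest HSA library of 86.5%. The share of miR-19a was 1.55 ± 0.200% in control and 4.59 ± 2.02% in HSA. That of miR-19b was 0.700 ± 0.174% and 2.13 ± 1.25%. All 6 HSA libraries exceeded all controls in both shares. The 5 members other than miR-92a summed to 289 ± 19.3 CPM in control and 656 ± 165 CPM in HSA. For the whole cluster, which miR-92a dominates, the sum was 4414 ± 638 and 4007 ± 1414 CPM.

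The order of the members by counts was the same in all 12 libraries, namely miR-92a, miR-20a, miR-19a, miR-19b, miR-18a and miR-17. In control, no range of CPM overlapped the range of its neighbour in that order. In HSA, the range of miR-19b overlapped those of miR-19a and miR-18a. Counts of different miRNAs also depend on how well each is ligated to the adapters, so the order describes counts and not molecules. In control, miR-92a ranked 31 and miR-17 ranked 215 among the 225 tested miRNAs by mean CPM. Some miRNAs of a seed family are close in sequence, so their reads may be shared. Such pairs may include miR-17 and miR-106a, miR-20a and miR-20b, miR-18a and miR-18b, miR-19a and miR-19b, and miR-92a and miR-92b. Possible sharing makes the low level of miR-17 the least certain. With both rows of its precursor added together, miR-17 averaged 64.1 CPM in control, between miR-19b at 30.1 and miR-19a at 67.7 CPM.

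The precursor rows do not separate the copies of the cluster. The counts of miR-19b on its 2 precursors were identical in all 12 libraries. The 2 rows of miR-92a differed in 6 libraries, by at most 8 counts, and both had a log2 fold change of -0.30. Counts of these miRNAs can come from either copy.

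HSA libraries differed in how far the cluster was raised. Measured as the log2 difference from the mean of the 6 controls, miR-19b was 2.02 higher in HSA replicate 4 and 0.48 higher in HSA replicate 6. MiR-18a ranged from 0.94 in replicate 6 to 2.10 in replicate 3. MiR-20a was smallest in replicate 5, at 0.56, and largest in replicates 3 and 4. Replicates 5 and 6 had the smallest rises of miR-17, miR-18a and miR-19b, and replicate 4 was among the 3 highest for miR-17, miR-18a, miR-19a, miR-20a and miR-19b. MiR-92a ranged from -1.18 in replicate 1 to 0.43 in replicate 4. HSA replicates 1 and 6, with a muscle sum within the control range, had 215 and 149 CPM of miR-19a and 328 and 348 CPM of miR-20a, all above the highest control values. Their miR-18a (30.5 and 20.4 CPM) and miR-19b (114 and 41.5 CPM) were also above every control. MiR-17 was at 5.83 CPM in replicate 1 and, within the control range, at 3.05 CPM in replicate 6, and miR-92a was below every control in both. Without HSA replicates 3 and 5, the same 4 members were called, with log2 fold changes of 1.51 for miR-18a, 1.38 for miR-19a, 1.56 for miR-19b and 1.03 for miR-20a (adjusted p from 0.000424 to 0.00275, edgeR). The part of the leukocyte, epithelial and muscle miRNAs in these differences was not tested.

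**Figure D4:**
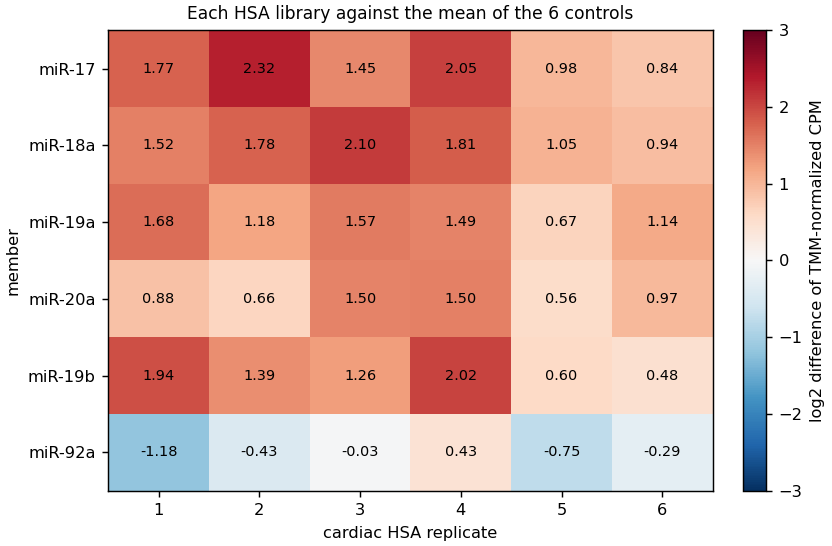
Log2 difference of TMM-normalized CPM between each cardiac HSA library (columns) and the mean of the 6 control libraries, for each member (rows, in gene order). The first 5 rows are positive in all 6 columns, from 0.48 to 2.32, and the row of miR-92a is negative in all but replicate 4.

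Within the 6 HSA libraries, the members other than miR-92a varied together to a degree. Over their 10 pairs, Pearson's r of log2(CPM + 1) ran from 0.14 to 0.81 with a median of 0.67. The pairs miR-17 with miR-19b (0.81) and miR-19a with miR-19b (0.77) were the closest, and miR-17 with miR-20a (0.14) was the farthest apart. MiR-92a had an r of 0.75 with miR-20a and of 0.14 to 0.43 with the other 4. In the 6 controls, whose levels vary less, the median over the 10 pairs was 0.30. These values describe 6 libraries each, and miRNAs of 1 library share its depth and scaling.

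The other tested miRNAs most like the mean of the 6 members, after each group's mean was taken off, were miR-505, miR-660, miR-362, miR-1307 and miR-144, with Pearson's r from 0.80 to 0.88 over 12 libraries. Of these, miR-660, miR-362 and miR-144 were themselves called higher in HSA, with log2 fold changes of 2.19, 2.19 and 1.77. MiR-505 and miR-1307 were not, with 0.31 and 0.24 (adjusted p = 0.521 and 0.567, edgeR). Without taking the group means off, the closest were miR-660, miR-146a, miR-362, miR-8865 and miR-21, with r from 0.93 to 0.96. All of them were called higher in HSA, but this measure itself picks miRNAs that differ between the groups, since most members do.

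Relatives of the cluster were read from a list of 10 paralogs and seed relatives. Of these, 9 were tested and miR-367 had 0 counts in every library. Of the 9, 2 were called higher, 0 were called lower and 7 were not called, beside 18.7% called higher over all tested miRNAs. All 9 log2 fold changes were positive, with a median of 1.09, beside a median of 0.34 over the 225 tested miRNAs. The 9 include miR-106a, which was read from a row on the precursor mir-17 of the cluster itself. In the paralogous cluster miR-106b-25, miR-106b was called, with 118 ± 14.1 CPM in control and 251 ± 75.2 CPM in HSA (SD, n = 6 each) and a log2 fold change of 1.09 (adjusted p = 0.0023 from edgeR). By name it belongs to the seed family of miR-17, and it had no overlap between the groups. Its cluster mates miR-93 and miR-25 had log2 fold changes of 0.66 and 0.24 (adjusted p = 0.0205 and 0.218, edgeR).

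The miRNAs named for the second copy of the cluster, which carries the other precursors of miR-19b and miR-92a, were not called. MiR-106a was read from its row with the highest total, which lies on the precursor mir-17 and not on the second copy. It had 62.0 ± 6.77 CPM in control and 112 ± 39.6 CPM in HSA (SD, n = 6 each), without overlap, and a log2 fold change of 0.85 (adjusted p = 0.0133 from edgeR). MiR-20b had a log2 fold change of 1.83 (adjusted p = 0.011, edgeR), with 5 HSA libraries above and 1 below every control. That of miR-18b was 1.32 (adjusted p = 0.192, edgeR), at 0 to 24 counts per control library. That of miR-363 was 0.55 (adjusted p = 0.132, edgeR).

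Relatives of miR-92a by seed include miR-25, miR-32 and miR-92b. MiR-25, the most abundant of them, was at 1268 ± 134 CPM in control and 1502 ± 334 CPM in HSA (SD, n = 6 each). The rare miR-92b was called higher, from 2.14 ± 1.55 to 9.30 ± 4.15 CPM (SD, n = 6 each), a log2 fold change of 2.12 (adjusted p = 0.00709 from edgeR). MiR-32 had a log2 fold change of 1.54 (adjusted p = 0.0127, edgeR) and was not called, although its groups did not overlap. Whether these fold changes differ from that of miR-92a was not tested.

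**Figure D5:**
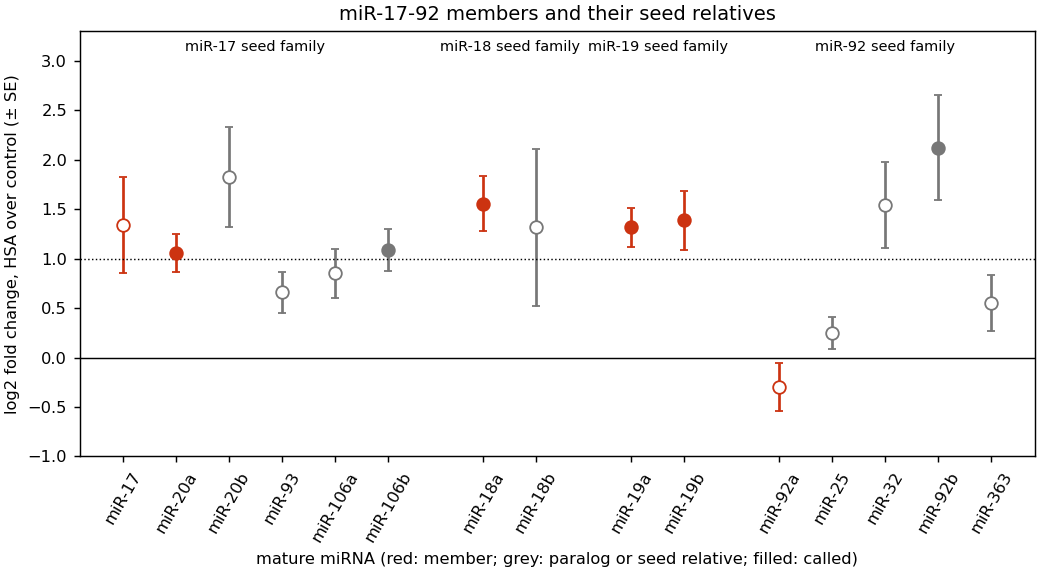
Log2 fold change (± SE, from edgeR) of the members (red) and of the 9 tested relatives (grey), grouped by seed family; filled points were called, and the dotted line marks the fold threshold of 1. MiR-92a is the single point below 0, and miR-92b, of the same seed family, is the highest at 2.12. The point of miR-106a comes from its row on the precursor mir-17.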

How the data were processed

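Per the labels and the methods of the study, RNA was extracted from FFPE sections and cardiac small RNA libraries were made with a NEXTflex kit (the labels name a QIAseq kit). The authors trimmed reads with Cutadapt, aligned them with Bowtie to CanFam3.1 and used HTSeq for counts per miRBase miRNA. The authors deposited these raw counts and a CPM table. Recomputed CPM differed from the deposited CPM by at most 0.00499. Of 517 rows, 43 with the same mature name and identical counts were merged, which left 474.

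Differential expression was computed with edgeR 4.0.16 in R 4.3.3 (quasi-likelihood test, TMM, default filter on low counts by group, 244 rows for 225 mature miRNAs tested). Printed CPM are TMM-normalized, and the SE was taken as the absolute log2 fold change divided by sqrt(F). Ratios used raw counts. Groups follow the titles. The dogs are separate animals, and replicate numbers do not pair them. Alternatives were DESeq2 1.42.0, limma 3.58.1 on the deposited CPM, other scalings and filters, thinned counts, a replicate term and leaving out libraries. The tests were tried on simulated data. The members, lists and tests were chosen with earlier results of these data known. Named are the 6 members, the listed relatives and marker miRNAs, the reference candidates and the 5 closest profiles by each of 2 measures. Statements on sequence reads and floors cover counting error only, since PCR reads are not independent molecules. Mature sequences were not used here.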

Additional observations from a re-analysis of the deposited data

Results flagged for a closer look

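Over 60 groups of 6 libraries (each member, each ratio between members and each tested relative, in HSA and in control), 2 held a library that stood apart by Dixon's test, which chance gives in about 1 of 20 groups. The log2 ratio of miR-19a to miR-92a was -3.07 in HSA replicate 1 and from -4.87 to -4.31 in the other 5 HSA libraries. MiR-93, a relative of miR-17, was at 1378 CPM in HSA replicate 3 and at 543 to 816 CPM in the other 5.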

How the results depend on the processing

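Over all tested miRNAs, 58 were called, and leaving out 1 library gave 24 to 65. The 4 called members became 1 to 4, with log2 fold changes of 1.27 to 1.66 for miR-18a, 1.00 to 1.41 for miR-19a, 0.98 to 1.52 for miR-19b, 0.72 to 1.13 for miR-20a, 1.05 to 1.58 for miR-17 and -0.72 to -0.22 for miR-92a. MiR-18a, miR-19a and miR-19b kept their call under the other settings with all libraries, the replicate term apart. MiR-20a fell under the fold threshold with DESeq2 (0.99), median-of-ratios factors (0.99), TMM without muscle miRNAs (0.97) and 1 row per mature miRNA (0.98), and with the 3 reference candidates (0.98), which were added after the data were seen. MiR-92a turned positive with library size only (0.29), miR-8859a and miR-8859b (0.0062) and limma on CPM plus 1 or plus 0.1 (0.24 and 0.24), and was called in none of them. MiR-17 passed neither a filter of 10 CPM nor the filter after thinning. The cause of these changes was not tested.

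The number of ratios that differed was 5 to 6 over the other settings and without 1 library. With counts thinned to 1 depth, it was 6, since miR-18a to miR-20a and miR-19a to miR-20a differed too (adjusted p = 0.0361 and 0.00866, exact permutation tests) and miR-17 gave no ratio. Without HSA replicates 3 and 5 it was 4. The differences of 4 ratios near 0 changed sign when 1 library was left out, from -0.34 to 0.35 for miR-17 to miR-18a, -0.0316 to 0.52 for miR-17 to miR-19a, -0.0766 to 0.54 for miR-17 to miR-19b and -0.13 to 0.11 for miR-19a to miR-19b. The last was also -0.0773 for medians and, chosen after the data were seen, -0.0857 without HSA replicates 3 and 5. With both rows of the precursor mir-17 added together, also chosen after the data were seen, the ratios of miR-17 to miR-18a, miR-19a, miR-19b and miR-20a were lower in HSA, by -0.72, -0.48, -0.47 and -0.20.

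Libraries with the same replicate number come from separate animals. Their deviations from the group means had correlations from -0.31 to 0.08, and libraries of different numbers were not compared in this way. With the replicate block, 6 miRNAs and 0 members were called, with log2 fold changes of 1.53 for miR-18a (adjusted p = 0.0106, edgeR), 1.29 for miR-19a, 1.28 for miR-19b and 1.01 for miR-20a. The sign-flip test within replicate numbers, the replicate block of the ratios, called 0 of them, with 0.0312 as its smallest possible p before adjustment.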
